A study of Mus musculus with 319 samples.

Results

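Wild-type thymic tuft cells were described here as single cells sorted from pooled thymi. A cell was a well of 1 sorted cell, labelled wild type, that passed 3 limits. It had 10000 or more gene reads (reads outside the ERCC spike-in RNA), 1000 or more detected genes, and no more than 20% of these reads in genes of the mitochondrial genome. Of 218 such wells 205 were kept, of 301 cells kept in the whole series of 319 samples. They came in 3 sets, named June5 (29 of 31 wells kept), June29 (87 of 95) and WT batch 2 (89 of 92), each a pool of thymi with no animal named. The mice were C57BL/6 and homozygous for Flare25, a reporter of Il25, were 6 weeks old and not challenged, and their sex was labelled as mixed. Cells labelled Aire-/- came from mice that also carried Flare25 on both alleles and lacked Aire, the nuclear regulator of tissue antigen expression in the thymic medulla. They served here as a comparison (96 cells, of which 95 were labelled 6 weeks old and 1 was labelled 5 weeks old), beside a well titled WT that held 50 cells and 1 no-cell well of June29. The title of the WT 50-cell well, and the deposited table that holds its counts, give it as wild type, while its description names the Aire-/- table, and the description of the Aire-/- 50-cell well names the wild-type one, so the genotype of each rests on its title. The sort took cells negative for UVBlue, CD11c and CD45, positive for EPCAM and Flare25 and low for MHCII, so Il25, Epcam and MHC class II genes were touched by the gates. Libraries were made by Smart-seq2, which covers whole transcripts and carries no molecular identifiers.

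Tuft cells are rare chemosensory epithelial cells with a bundle of stiff microvilli at their tip. They carry the signalling chain of taste cells, in which a receptor frees G protein subunits, phospholipase C makes IP3, calcium leaves internal stores and the channel TRPM5 opens. In the intestine and airway they are known for IL-25, leukotrienes, prostaglandins and acetylcholine, and in the thymus they sit in the medulla among the epithelial cells that show self antigens to T cells. The transcription factor Pou2f3 is needed for their development.

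The median cell held 539655 gene reads (June5), 1150170 (June29) and 566923 (WT batch 2), against 638298 for Aire-/-. The range over the wild-type cells was 88822 to 2927690 reads. The deepest cell held 11.7% of the June5 reads, 2.59% of the June29 reads and 2.57% of the WT batch 2 reads, so a June5 level can rest on few cells. No 2 wells held identical counts. Since each set was 1 pool, the 3 set values are given side by side with no test. An interval is given only for a share of cells and treats the cells of a pool as independent draws. It does not cover the spread between pools or animals. PCR reads without identifiers are not independent molecules, so no interval is given for a level. The no-cell well held 9892 gene reads beside 99.7% of its reads in spike-ins.

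At least 3 of 5 defining markers of tuft cells were found in nearly every cell. All 5 markers (Avil, Trpm5, Pou2f3, Sh2d6 and Gnat3) reached 5 reads in 15 of 29 cells of June5, 48 of 87 of June29 and 35 of 89 of WT batch 2. At least 3 of them did so in 29, 87 and 84 cells of these sets in the same order, and no wild-type cell had 0 of 5. The no-cell well also reached 5 reads of 4 of these 5 markers, with 23 reads of Avil, 20 of Trpm5, 10 of Gnat3 and 6 of Sh2d6 against 0 of Pou2f3, and it did so for 17.5% of the shared genes described below. A count of 5 reads alone therefore does not tell a cell from that well, whose 9892 gene reads were fewer than those of any kept cell. The 5 genes chose the label and are a check on it, not a finding. They are protein-coding genes, annotated by GENCODE M21 on GRCm38 at chr10:127000709-127020994 (Avil, plus strand), chr7:143069153-143094642 (Trpm5, minus), chr9:43123939-43210369 (Pou2f3, minus), chr6:72513641-72521707 (Sh2d6, minus) and chr5:17962549-18019834 (Gnat3, plus).

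Avil, which encodes advillin, an actin-bundling protein of tuft microvilli, stood at 4222 CPM (reads per 1000000 gene reads, summed over the cells of a set) for June5, 3432 CPM for June29 and 2893 CPM for WT batch 2. At least 5 reads of it were found in 100% of June5 cells (95% exact Clopper-Pearson interval 88.1 to 100), 100% of June29 cells (95.8 to 100) and 97.8% of WT batch 2 cells (92.1 to 99.7). Trpm5, the cation channel at the end of the taste cascade, stood at 3080.2, 2374 and 2274 CPM in June5, June29 and WT batch 2, with the same 3 shares of cells as Avil. Few wild-type cells lacked 5 reads of either gene.

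Sh2d6, an SH2-domain adaptor gene, stood at 2005 CPM (June5), 1315 CPM (June29) and 1806 CPM (WT batch 2), and its share of cells was 100%, 94.3% and 85.4%. Pou2f3 stood at 438, 277 and 432 CPM, with shares of 72.4% (52.8 to 87.3), 71.3% (60.6 to 80.5) and 69.7% (59.01 to 78.97). The 3 intervals for Pou2f3 overlap, which is no test of a difference between pools. Gnat3, the alpha subunit of the taste G protein gustducin, stood at 1404, 1322 and 1860.2 CPM but in only 68.97% (49.2 to 84.7), 73.6% (63.02 to 82.4) and 60.7% (49.7 to 70.9) of cells. These shares use cells of unequal depth. In cells thinned to 272687 gene reads the Gnat3 shares were 68.2%, 55.3% and 59.7%, so June29 went from the highest to the lowest.

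**Figure D1:**
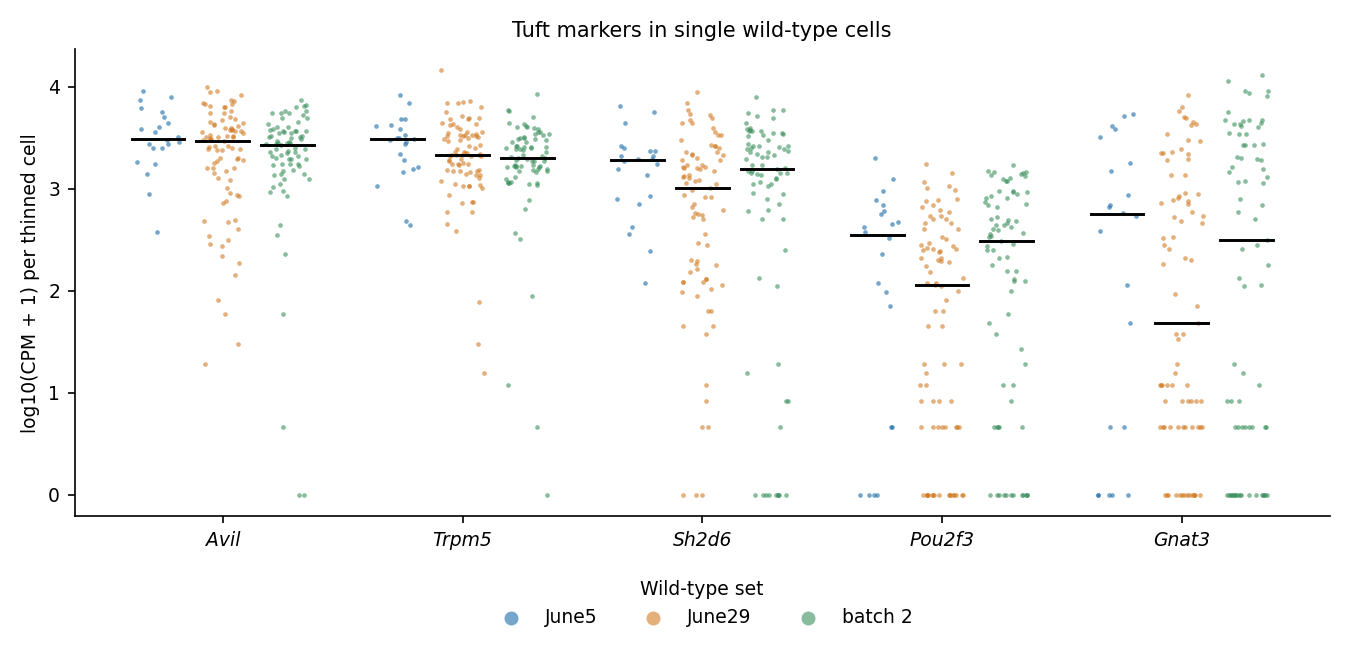
Level of 5 tuft markers in single wild-type cells thinned to 1 depth, as log10(CPM + 1), with a point for each cell of June5, June29 and batch 2 (WT batch 2) and a black bar at the median. Most points of Avil and Trpm5 lie near their median bar in each set, while Gnat3 and Pou2f3 have many points at or near 0.

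A gene was called shared when it had at least 100 CPM and 5 or more reads in at least 50% of cells in each of the 3 sets taken alone. Of 29132 genes with a read in a wild-type cell, 719 (2.47%) were shared, while the limits were passed by 4.26% of genes (June5), 3.46% (June29) and 3.97% (WT batch 2). These shares are the background for all counts of listed genes below, and for genes merely present (5 or more reads in at least 10% of the cells of each set) it is 26.2%. The shared genes comprised 685 protein-coding genes, 25 pseudogenes and a few RNA genes, and 10 of the 719 were encoded by mitochondria. The limits cut through a continuum. Ccdc12 at 100.3 CPM lay just inside the level limit and Numa1 at 99.7 CPM just outside it, and Atp2a2 with 50.6% of cells lay inside the share limit and Sept8 with 49.4% outside it, each in its lowest set.

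**Figure D2:**
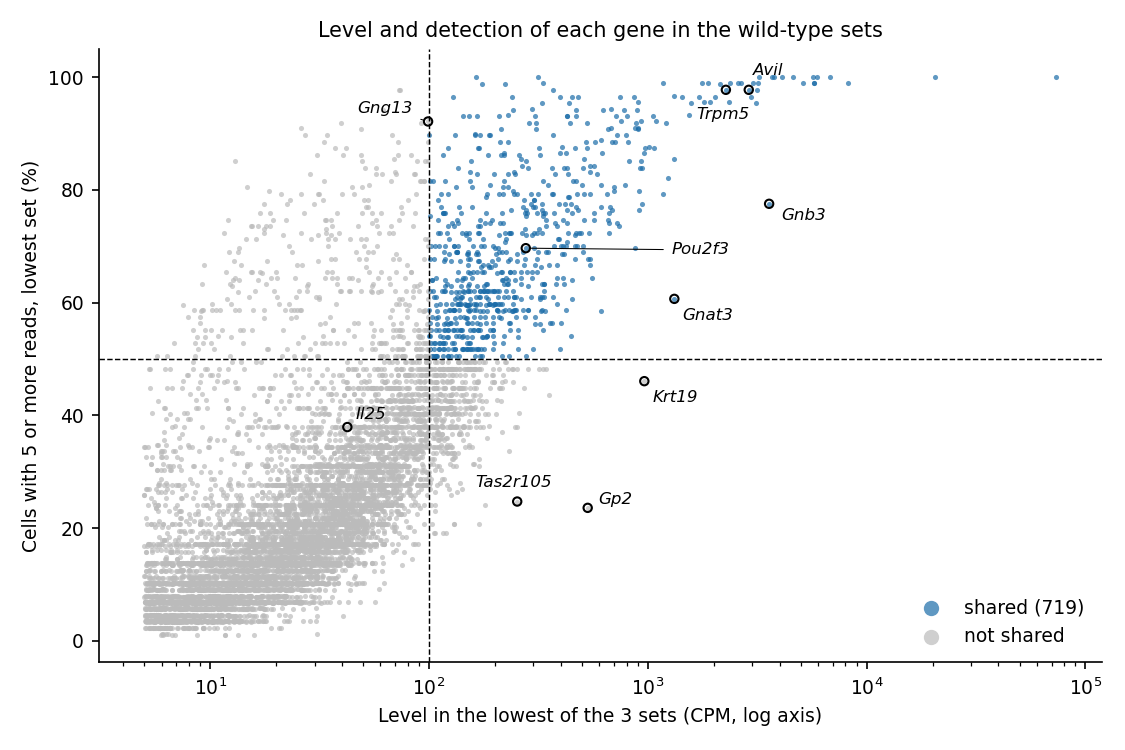
Each point is a gene at 5 CPM or more, with its level in the lowest of the 3 wild-type sets (CPM, log axis) against the share of cells with 5 or more reads in the lowest set (percent), and dashed lines mark the limits of 100 CPM and 50% of cells. The 719 shared genes (blue) fill the upper right, Gng13 lies just left of the level limit, and Krt19, Gp2 and Tas2r105 lie high in level and low in share.

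The median cell of each set held most of the shared genes, though not every cell did. The limit on the share of cells, by which these genes were chosen, favours this result, so it is no separate finding. The median cell had 5 or more reads of 596 of the 719 (June5), 547 (June29) and 570 (WT batch 2), with a low of 203 in June29 and a high of 716 in June5. After each cell was thinned to 272687 gene reads these medians were 598, 472 and 561. Shared genes took 55.3%, 56.3% and 51.4% of the gene reads of the median cell in June5, June29 and WT batch 2. Ribosomal RNA of the entry CT010467.1 alone took 7.34%, 8.95% and 8.51% of the reads of the sets.

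Genes said to lead a list further below do so by CPM, which is not scaled for length. Here levels of different genes are compared per kilobase of exon (RPKM). By that scale the leading 30 protein-coding, nuclear, non-ribosomal genes mixed antigen presentation, simple keratins, taste signalling and upkeep. B2m, the light chain of MHC class I, led with 5007 RPKM (June5), 3743 RPKM (June29) and 6312 RPKM (WT batch 2). The keratins of simple epithelium followed, Krt8 with 3760.3, 3096 and 2908 RPKM and Krt18 with 3516, 3877 and 2193 RPKM in the same sets. Calmodulin 2 (Calm2), a calcium sensor, had 2018, 2168 and 2054 RPKM, and H2-D1, an MHC class I heavy chain, had 2946, 1787 and 2912 RPKM.

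Gnb3, the beta subunit that pairs with gustducin, ranked in 8th place with 1578 RPKM (June5), 1708 RPKM (June29) and 1362 RPKM (WT batch 2), above H2-K1. Gnat3 had 1032, 972 and 1367 RPKM, Avil 1242, 1010.1 and 851 RPKM, and Sh2d6 1186, 778 and 1069 RPKM. Lrmp, an endoplasmic reticulum membrane protein also known from lymphocytes, had 1229.8, 768 and 933 RPKM, and Rgs13, which speeds the shut-off of G proteins, had 806, 615 and 1034 RPKM. These taste and tuft genes ranked by the lowest of their 3 set values, as all 30 did. Others in the leading 30 included Actb, Ubb, Tmem176b, Hsp90ab1, Anxa4, Plac8, Plk2, H3f3b, Ier2, Cd24a, Alox5ap, Tuba1a, Itm2b, Elf3, Fos and Gm8797. For Gm8797 93.04% of its 31-base words, and for Tuba1a 78.6%, occur in other genes, so their counts are uncertain.

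**Figure D3:**
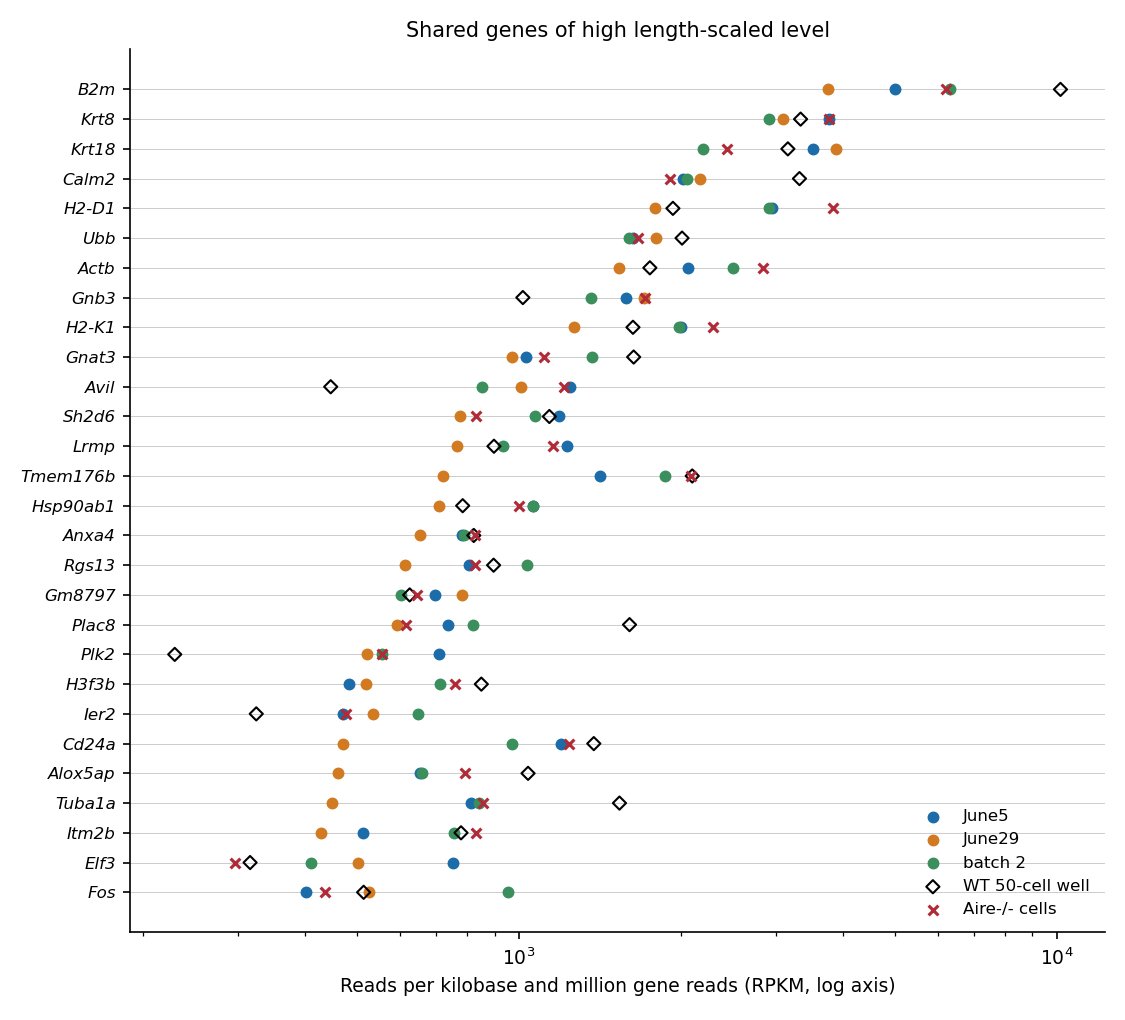
Length-scaled level (RPKM, log axis) of leading shared genes in June5, June29 and batch 2 (filled circles), the 50-cell well titled WT (open diamonds) and the cells labelled Aire-/- (crosses). B2m and Krt8 lead, and Plk2, Avil and Ier2 lie lower in the 50-cell well than in any set of single cells.

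The listed groups differed widely in how many members were shared. Of 22 genes of taste transduction, 6 were shared and 16 present. The chain from G protein to channel was covered by Gnat3, Gnb3, Gnb1, Plcb2, Itpr2 and Trpm5. Plcb2, the phospholipase C of taste cells, stood at 1269 CPM (June5), 1351 CPM (June29) and 679 CPM (WT batch 2), in 100%, 95.4% and 91.01% of cells. Itpr2, an IP3 receptor that releases stored calcium, stood at 626, 961 and 427 CPM. The gamma subunit Gng13 missed the level limit in June29 alone, with 165.6, 99.1 and 182.1 CPM, yet it was found in 93.1%, 97.7% and 92.1% of cells. Calhm3, part of the channel through which taste cells release ATP, stood at 396, 264 and 213 CPM in 62.1%, 42.5% and 57.3% of cells. Itpr3, the IP3 receptor best known from taste cells, was present and not shared, and the sweet and umami receptor genes Tas1r1 and Tas1r3 were present too.

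Among 25 other G protein subunits and regulators, 4 were shared and 13 present. Rgs13 stood at 1333 CPM (June5), 1017 CPM (June29) and 1711 CPM (WT batch 2), and Rgs2, of the same family, at 1315, 788 and 1082 CPM. The inhibitory subunit Gnai2 stood at 379.6, 272 and 229.8 CPM and the beta subunit Gnb2 at 156.6, 133.2 and 134.8 CPM. No bitter taste receptor of 35 was shared, and 13 were present, led by Tas2r105 at 277, 431 and 253 CPM in 27.6%, 25.3% and 24.7% of cells. Of 27 receptors for neuropeptides, lipids and metabolites 0 were shared and 2 present, the ATP-gated channel gene P2rx4 (97.9, 94.8 and 121.96 CPM) and Lpar6 (32.9, 115.2 and 64.7 CPM). Sucnr1, the succinate receptor of intestinal tuft cells, stood at 25.1, 14.1 and 20.6 CPM. Tas2r108 was the bitter receptor found in the highest share of cells in each set, with 65.5% (June5), 36.8% (June29) and 42.7% (WT batch 2), at 139.9, 203.9 and 197.8 CPM.

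Of 29 genes of the cytoskeleton and microvilli 17 were shared and 25 present. Besides Krt8, Krt18, Avil and Actb they included Dclk1, a microtubule-linked kinase and common tuft marker, at 1159 CPM (June5), 1499 CPM (June29) and 908 CPM (WT batch 2). Others were the actin regulators Cfl1, Pfn1 and Tmsb4x, the bundler Espn and Cdhr5, an adhesion protein between microvilli. Cdhr2, its partner, missed the share limit with 72.4%, 31.03% and 44.9% of cells, and Vil1, villin of the intestinal brush border, stood at 113.1, 45.4 and 78.8 CPM.

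Of 30 transcription factors linked to tuft cells 9 were shared and 22 present. By their lowest set the epithelial ETS factors Elf3 and Ehf led, Elf3 with 1674 CPM (June5), 1112 CPM (June29) and 908 CPM (WT batch 2) and Ehf with 884, 804 and 688 CPM. Spib, an ETS factor of lymphocytes and microfold cells, stood at 992, 433 and 593 CPM and Sox9, a factor of epithelial progenitors, at 774, 472 and 404 CPM. Pou2f3, Nfatc1, Klf4, Klf3 and Runx1 completed the group. Gfi1b, a repressor used as a tuft marker, reached 5 reads in 41.4%, 26.4% and 33.7% of cells and was not shared.

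Of 36 listed genes, mostly of signalling and better known from blood cells, 16 were shared and 22 present. Vav1, an exchange factor for Rac, stood at 1389 CPM (June5), 1095 CPM (June29) and 1194 CPM (WT batch 2), in 100%, 96.6% and 92.1% of cells. Ptpn6, the phosphatase SHP-1, stood at 1898, 1056 and 1625 CPM. Bmx, a Tec-family kinase, stood at 1115, 1211 and 906 CPM, and the adaptor gene Fyb at 927, 1136 and 903 CPM. Ptpn18, Pik3r5, Inpp5d, Pik3cg, Rac2, Skap2, Plcg2, Sh2d7, Matk and Sh2d6 were shared as well. So was Cd24a, a listed gene of a surface protein that is no kinase, phosphatase or adaptor.

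Ptprc, which encodes CD45, the antigen excluded by the sort, stood at 141.7, 94.8 and 149.4 CPM in June5, June29 and WT batch 2. At least 5 of its reads were found in 24.1%, 29.9% and 29.2% of cells, and a single cell held 65.5%, 38.6% and 30.1% of its reads. Summed over the 10 thymocyte markers the level was 91.98 CPM (June5), 61.6 CPM (June29) and 153.2 CPM (WT batch 2), with 0 shared and 0 present, and over the 10 dendritic cell or macrophage markers it was 5.12, 136.7 and 76.5 CPM, with 0 shared and 0 present. Cd79b, of the B cell receptor, was the 1 present gene of the 8 B cell markers (184.05, 117.6 and 209.8 CPM in 62.1%, 35.6% and 46.1% of cells), while Cd79a was not present. Ebf1, a B cell factor of the same list, reached 5 reads in 13 of 29 cells (June5), 61 of 87 (June29) and 5 of 89 (WT batch 2), and so was not present by the last set, at 5.68, 13.5 and 8.20 CPM, and the no-cell well held 25 of its reads. At least 2 markers of 1 of these 3 lists reached 5 reads, before thinning, in 11 cells of June5, 29 of June29 and 12 of WT batch 2. The B cell list met this in 10, 24 and 10 cells, with at most 2, 3 and 2 of its markers in a cell. Whether the flagged cells held RNA of blood cells was not tested. Without these 52 cells 689 genes were shared, 651 of them among the 719, and the level of Gnat3 was 628 CPM (June5), 916 CPM (June29) and 2047 CPM (WT batch 2). The part of these markers in other levels was not tested.

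Of 23 genes of eicosanoid synthesis 6 were shared and 11 present, and they cover the leukotriene and prostaglandin D routes. Alox5, the 5-lipoxygenase that starts leukotriene synthesis, stood at 2218 CPM (June5), 1073 CPM (June29) and 1299.7 CPM (WT batch 2). Its partner Alox5ap stood at 928, 653 and 938 CPM, and Ptgs1, cyclooxygenase 1, at 816, 458 and 449 CPM. Hpgds, which makes prostaglandin D2, stood at 327, 312 and 415 CPM in 86.2%, 65.5% and 75.3% of cells, and the phospholipase gene Pla2g16 at 396, 216 and 441 CPM. Ltc4s, the leukotriene C4 synthase, missed the level limit in June29 with 126.7, 95.2 and 117.7 CPM but was found in 82.8%, 81.6% and 85.4% of cells. The inducible Ptgs2 was not present.

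Of 35 listed cytokines and chemokines 0 were shared, which is near the background of 2.47%, and 6 were present. Il10, an anti-inflammatory cytokine, led in its lowest set with 163.3 CPM (June5), 227 CPM (June29) and 238 CPM (WT batch 2), in 37.9%, 49.4% and 48.3% of cells. Il25, whose reporter was the basis of the sort, stood at 70.4, 42.4 and 72.9 CPM in 55.2%, 37.9% and 49.4% of cells. Of 28 genes of cytokine reception 2 were shared and 19 present. These were Il17rb, a chain of the IL-25 receptor, at 382, 342 and 247 CPM, and Il4ra, the shared chain of the IL-4 and IL-13 receptors, at 221, 184.3 and 243 CPM. Chat, choline acetyltransferase, was shared (243, 273 and 331 CPM in 79.3%, 59.8% and 60.7% of cells) as the 1 member of 14 genes of acetylcholine handling.

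MHC class I presentation was shared by 12 of 21 listed genes, and 20 were present. H2-D1 stood at 7599 CPM (June5), 4609 CPM (June29) and 7511 CPM (WT batch 2), and H2-K1 at 5876, 3710.4 and 5829 CPM. B2m, H2-D1 and H2-K1 reached 5 reads in 100% of cells of each set. The nonclassical H2-T23 was shared as well, beside H2-Q6, H2-Q7, Pdia3, Calr, Tapbp, Psme1, Psme2 and Psmb8. H2-Q6, H2-Q7, H2-D1, H2-K1 and H2-T23 share 51.8%, 39.2%, 26.9%, 22.8% and 25.8% of their words with other genes, so reads may be split among class I genes. Tap1, of the peptide transporter, was found in 37.9%, 37.9% and 38.2% of cells and was not shared.

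MHC class II genes, whose products the sort required to be low, were present in 8 of 11 cases and shared in 2. H2-Ab1 stood at 236 CPM (June5), 844 CPM (June29) and 526 CPM (WT batch 2), and H2-Eb1 at 256.2, 364 and 344 CPM. Cd74, the invariant chain, stood at 318, 826 and 666 CPM, and single cells held 43.7%, 33.6% and 18.8% of its reads. Single cells held 45.6%, 39.4% and 18.5% of the H2-Ab1 reads, and without the cell with most of them H2-Ab1 stood at 136.9 CPM (June5), 519 CPM (June29) and 434 CPM (WT batch 2). In the no-cell well H2-Ab1 had 18 reads, of 9892. Ciita, the coactivator of class II genes, was not present.

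Epithelial genes had 10 shared members of 29, and 23 were present. Epcam, the target of a sort antibody, stood at 1462 CPM (June5), 775 CPM (June29) and 1388 CPM (WT batch 2), and the protease inhibitor gene Spint2 at 1251, 625 and 1323 CPM. Of 22 regulators of thymic epithelium 1 was shared, Eya1, a coactivator in thymus development, at 404, 369.8 and 687 CPM. Foxn1, Psmb11, Krt5 and Krt14 were not present, and Aire stood at 7.84, 11.2 and 18.9 CPM. No gene of the marker lists for Aire-expressing, mTEC low, cortical, corneocyte-like, ciliated or neuroendocrine-like epithelium, fibroblasts or endothelium was shared. The microfold-like list held the shared Spib, and its Gp2, a receptor for bacteria, stood at 1291, 839 and 531 CPM in 37.9%, 37.9% and 23.6% of cells. A single cell held 90.6% of the Gp2 reads of June5, and the June5 level without it was 123.7 CPM. Cell cycle genes had 0 shared and 1 present member of 16, Pcna (44.8, 57.6 and 164.5 CPM), and Mki67 was not present.

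**Figure D4:**
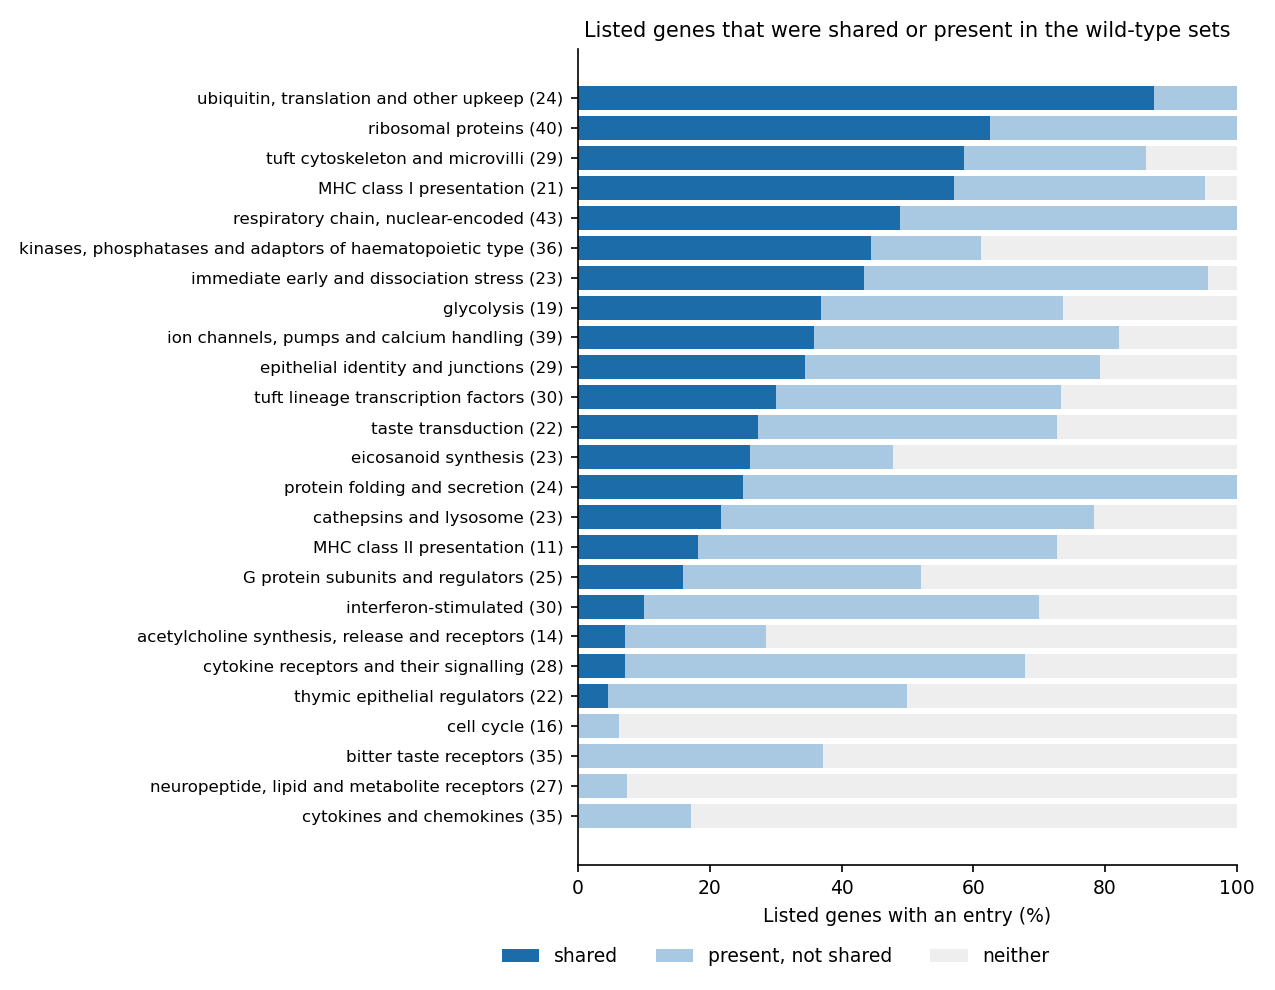
For each list that is not a marker list of another cell type, the percent of its members (number in parentheses) that were shared (dark), present but not shared (light) or neither (grey) in the wild-type sets. Upkeep, ribosomal, cytoskeletal and MHC class I lists had the highest shares, and cytokines, receptors and cell cycle genes had 0 shared.

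Calcium and ion handling was shared by 14 of 39 listed genes, with 32 present. Anxa4, a calcium-dependent membrane binder, stood at 3634 CPM (June5), 3037 CPM (June29) and 3668 CPM (WT batch 2). Atp2a3, a calcium pump of the endoplasmic reticulum, stood at 1617, 1311 and 1513 CPM in 100%, 97.7% and 96.6% of cells. Tmem176b and Tmem176a, a pair of membrane proteins of the same family, stood at 3357, 1712 and 4429 CPM and at 1497, 820.3 and 1812 CPM. Immediate early genes, which also rise in dissociated tissue, were shared by 10 of 23, with 22 present, among them Fos (945, 1235 and 2239.7 CPM) and Junb (928, 904 and 1672 CPM). Their part in the levels of other genes was not tested. Interferon-stimulated genes had 3 shared of 30, namely Irf7, Ifi27 and Lgals3bp, and 21 present.

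The housekeeping lists show what the limits pass in genes that all cells use. Of 24 genes of ubiquitin, translation and other upkeep 21 were shared, of 40 ribosomal protein genes 25, of 43 nuclear genes of the respiratory chain 21, of 19 glycolysis genes 7, of 23 lysosomal genes 5 and of 24 folding and secretion genes 6. All 40 ribosomal and all 43 respiratory genes were present. Rps15, of the small ribosomal subunit, missed the level limit in 1 set, at 164.6 CPM (June5), 99.2 CPM (June29) and 186.6 CPM (WT batch 2) with 96.6%, 88.5% and 95.5% of cells.

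The sets ranked the shared genes alike, with differences in level. Across the 719 genes, which are not independent and were chosen as high in each set, Spearman's rho was 0.81 between June5 and June29, 0.85 between June5 and WT batch 2 and 0.71 between June29 and WT batch 2. The median ratio of the highest to the lowest set was 1.62, and 564 genes (78.4%) lay within 2-fold. June29 was the lowest set for 364 genes, June5 for 150 and WT batch 2 for 205. CPM is a share of all gene reads, and the part of the read composition given above in these counts was not tested. The highest ratios were those of the lincRNA Gm26917 (ratio 9.89), the linker histone gene Hist1h1c (ratio 5.44), Ascc3 (5.04), Krt8-ps (4.77) and Ppia (4.49). Gm26917 stood at 559.9 CPM (June5), 1888 CPM (June29) and 190.9 CPM (WT batch 2). One cell held 75.3% of the Hist1h1c reads of June5. The most even were Metap2 (155.9, 155.3 and 154.4 CPM), Psma7, Slitrk6, Atp6v0b and Coprs, with ratios of 1.01 to 1.05.

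Most shared genes were also high in a library that the limits did not use. This library belongs to batch 2, as do the WT batch 2 cells that entered the limits, so it is no outside check. Across the shared genes Spearman's rho with this library was 0.66 for June5, 0.54 for June29 and 0.815 for WT batch 2. In the 50-cell well titled WT, with 720527 gene reads, 651 of the 719 (90.5%) stood at 100 CPM or more and 0 had no read, against 1219 (4.29%) of the other genes. In this well Gnat3 stood at 2222 CPM, against 293 CPM in the 50-cell well titled Aire-/-. Single cells did not show such a gap. Gnat3 stood at 1511 CPM in the cells labelled Aire-/- and 1860.2 CPM in WT batch 2, in 64.6% and 60.7% of cells. Avil stood at 1517 CPM in the well titled WT, Trpm5 at 973, Sh2d6 at 1924 and Pou2f3 at 351. The levels of Avil and Trpm5 were below those of every set of single cells, and in such a well fewer expressing cells and less RNA per cell cannot be told apart. The 66 shared nuclear, non-ribosomal protein-coding genes under 100 CPM in that well had a median exon length of 7334 bases, against 3892 bases for the other 580, and across the 646 genes the ratio of the well to WT batch 2 went with exon length at a Spearman's rho of -0.38. The part of length in the levels of the well was not tested further.

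In the cells labelled Aire-/-, 689 of the 719 passed both limits, which 4.9% of all genes tested did (1428 genes). Within batch 2, 705 of the 719 differed by at most 2-fold between WT batch 2 cells and the cells labelled Aire-/-, while 613 did so between June29 and WT batch 2 and 677 between June5 and WT batch 2. These are 98.1%, 85.3% and 94.2% of the shared genes. Over all 2545 genes with at least 50 CPM in each wild-type set, the same 3 shares were 95.2%, 85.6% and 90.7%, so the shares were high for other genes too. None of these counts is a test. Of the 30 genes that missed a limit, the lowest against the wild-type sets was the corepressor gene Ncor1, at 138.4 CPM (June5), 148.2 CPM (June29) and 141.3 CPM (WT batch 2), against 61.6 CPM in the cells labelled Aire-/-. Pou2f3 stood at 438, 277 and 432 CPM, against 456 CPM in those cells, and Avil at 4222, 3432 and 2893 CPM, against 4126 CPM. These members were named after their values were seen.

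The spread between cells was measured after thinning to 272687 gene reads, which kept 22 cells of June5, 85 of June29 and 77 of WT batch 2. Among 2545 genes with at least 50 CPM in each set, a gene was called variable when its squared coefficient of variation lay in the upper 10% for its level in each set, no cell held over 25% of its reads, and at least 10% of cells had 5 reads. These limits on reads used the thinned counts, and the level of 50 CPM used the counts before thinning. Only 1 gene, Gnat3, passed (0.0393%). In June5, 253 genes passed without the limit on a single cell and 9 with it. A second measure, the SD of log2(CPM + 1) with the same limits, gave 65 genes (2.55%), and the first measure without the limit on a single cell gave 33 (1.3%). These 2 lists had 1 gene in common. Without the 52 cells flagged above by lists of blood cell markers the second list held 14 genes, 11 of them in the 65, with 11 thinned June5 cells left. Whether the markers or the smaller number of cells lowered the count was not tested. Gnat3, Gnb3, Krt19, Dclk1 and Fos, described below, are not among these 14.

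Gnat3 differed widely between cells. Per cell before thinning it ranged from 0 to 5436 CPM in June5, 0 to 8285 in June29 and 0 to 12991 in WT batch 2, with medians of 431, 35.2 and 244 CPM. In thinned cells the medians were 561, 47.7 and 315 CPM. Before thinning, the 25th percentiles of cells were 3.02, 3.61 and 1.66 CPM. A single cell held 37.3%, 13.9% and 16.3% of its reads before thinning, and without it the set levels were 974, 1164 and 1594 CPM. The limit of 25% was applied after thinning. In the no-cell well Gnat3 had 10 reads.

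Gnb3 was uneven as well, though found in most cells. Before thinning, its lowest, median and highest cells were at 0, 2480.1 and 9892 CPM in June5, 1.84, 2047 and 15510.1 in June29, and 0, 1151 and 20507 in WT batch 2. Both subunits reached 5 thinned reads in 15 of 22 cells of June5, 42 of 85 of June29 and 41 of 77 of WT batch 2. Gnat3 without Gnb3 was found in 0, 5 and 5 cells, and Gnb3 without Gnat3 in 6, 31 and 18 cells. Across thinned cells of 1 set, which share library preparation and depth, Spearman's rho between Gnat3 and Gnb3 was 0.49 (June5), 0.31 (June29) and 0.44 (WT batch 2). Trpm5 went with neither of them in 1 direction, with rho of -0.41, 0.05 and 0.06 against Gnat3 and -0.12, -0.0044 and 0.07 against Gnb3. Itpr2 had negative rho in each set, with -0.31, -0.25 and -0.26 against Gnat3 and -0.25, -0.42 and -0.28 against Gnb3. Plcb2 had 0.41, 0.33 and 0.28 against Gnb3 and -0.06, 0.18 and 0.24 against Gnat3.

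Krt19, a keratin of simple epithelium outside the shared genes, had medians of 486, 279 and 6.36 CPM per cell before thinning in June5, June29 and WT batch 2. Its highest cells were at 4640.0, 5657 and 5019.7 CPM. In thinned cells its medians were 917, 381 and 84.3 CPM. Before thinning, Dclk1 had medians of 1146, 1071 and 737 CPM, with 0 reads in 4, 1 and 8 cells. Fos had medians of 394, 595 and 1707 CPM before thinning. These 3 genes, Gnat3 and Gnb3 lay between percentiles 99.6 and 100 of the second measure in each set. Other genes leading that list included Anxa2, Car7, Alox5, Egr1, Myo15b, Tnc, Alox5ap, Anxa1, Rac2, Hspa5, Pik3cg, Strip2, Sh2d7, Jun, Sdc4, Cnn3, Tsc22d1, Smim10l1, Tspan1, Cnbp, Rgs2, Ctsa, Xbp1 and Prnp. Of the 65, 58 were shared genes, while 719 of all 2545 genes tested for spread were shared. The part of level and of the measure in this count was not tested.

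**Figure D5:**
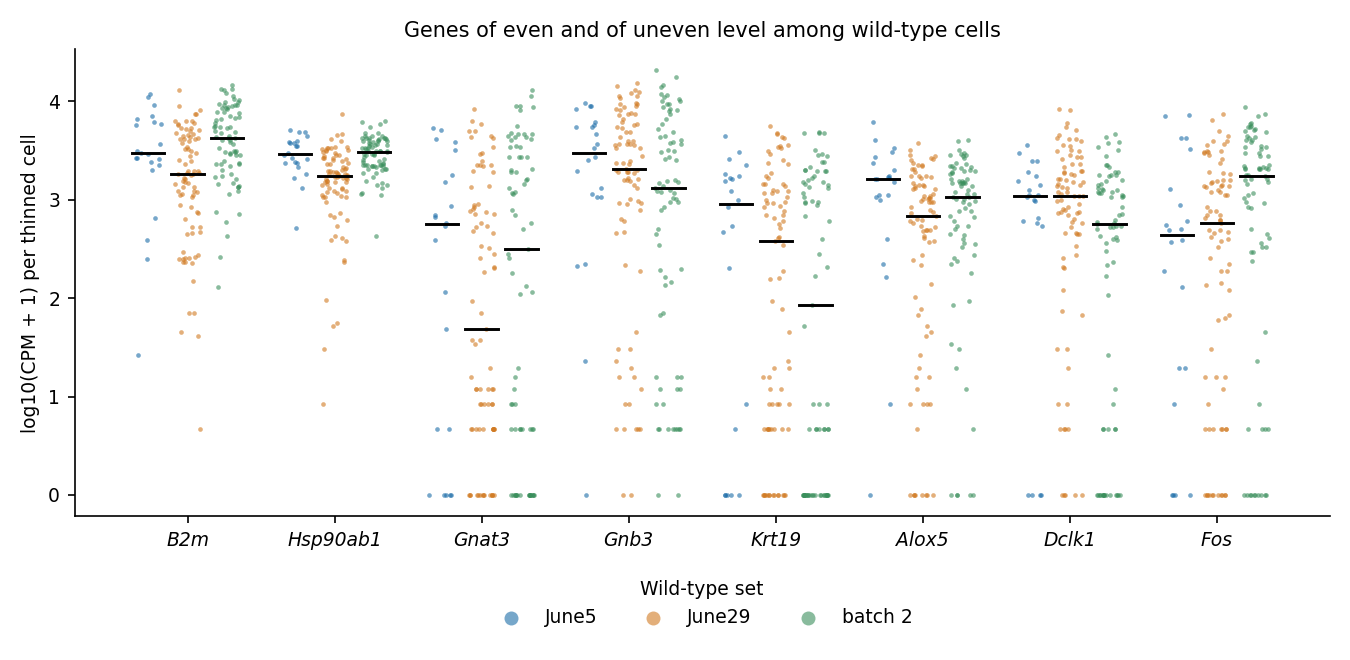
Level in single wild-type cells thinned to 1 depth, as log10(CPM + 1), for B2m and Hsp90ab1 and for 6 genes of high spread, with a point for each cell of June5, June29 and batch 2 (WT batch 2) and a black bar at the median. Most cells lie close to the median for Hsp90ab1, while Gnat3, Gnb3, Krt19, Alox5, Dclk1 and Fos have cells at or near 0 and cells above 1000 CPM.

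The list from the squared coefficient of variation without the limit held mainly genes found in few cells at high level. They included the bitter receptor genes Tas2r105, Tas2r113 and Tas2r138, the class II genes H2-Aa, H2-Ab1 and Cd74, and Gp2. Krt23, Ly6d, Ptprc, Egr2, Nrep, Rgs21, Scn2a and Dnah5 were on it too. Of the 33, 3 were shared genes, against 719 of all 2545 genes tested for spread. Before thinning, Tas2r105 had 5 or more reads in 27.6%, 25.3% and 24.7% of cells, with highest cells at 1985, 7897 and 4739.9 CPM in June5, June29 and WT batch 2. Scn2a, a neuronal sodium channel gene, was found before thinning in 17.2%, 14.9% and 16.9% of cells, with highest cells at 2226, 2219 and 1367 CPM.

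Of the 4656 pairs among the 97 genes on either list, 4 had a Spearman's rho of at least 0.5 across thinned cells in each set. The immediate early genes Fos and Egr1 had 0.51 (June5), 0.65 (June29) and 0.62 (WT batch 2). Tas2r113 and the pseudogene Tas2r142-ps5 had 0.78, 0.77 and 0.67. Nrep and Rgs21, a regulator of G proteins in taste cells, had 0.64, 0.56 and 0.56, and 1810046K07Rik and Prnp, the prion protein gene, had 0.69, 0.66 and 0.55. At least 5 thinned reads were found in 6, 16 and 18 cells for Tas2r113, 5, 13 and 13 for Tas2r142-ps5 and 6, 22 and 22 for Rgs21. Few positive cells thus carry the values of these pairs. Another 22 pairs had a rho of -0.3 or lower in each set, 9 of them with Gm26917 and 5 with Itpr2. Itm2b and Gm26917 had -0.61, -0.57 and -0.52 in June5, June29 and WT batch 2. Itpr2 went the other way from Prnp (-0.39, -0.58 and -0.41) and from Krt19 (-0.51, -0.39 and -0.34). These values describe the cells of 3 pools, and in sparse counts a weak correlation is no finding.

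The most even shared genes on the log scale included protein-coding genes of ribosome or energy upkeep (Rps27, Rpl41, Rpl23, Fau and the ATP synthase inhibitor gene Atpif1), the chaperone gene Hsp90ab1 and 3 processed pseudogenes, Gm5844, Gm15427 and Gm8355. Hsp90ab1 lay at or below the 3.73rd percentile of spread in each set. Its medians before thinning were 2672, 1796 and 2920.2 CPM per cell in June5, June29 and WT batch 2. The pseudogenes have 73.4%, 87.6% and 79.96% of their words in other genes, so their reads may come from those.

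POU factors such as Pou2f3 bind the octamer ATGCAAAT. The RefSeq promoter table (GRCm38.p6, 250 bases before to 50 after each start) held 550 of the 719 shared genes, and 20 of them (3.64%) had the octamer on either strand (ATGCAAAT or ATTTGCAT), against 532 of all 27025 genes in the table (1.97%). Of the markers Avil, Trpm5, Sh2d6 and Gnat3, 0 of 4 had it in this window. The 4 promoters below are shown because their genes belong to groups described above, Elf3 a factor, Hpgds an eicosanoid enzyme, Il4ra a cytokine receptor and 1810046K07Rik a variable gene with the octamer on each strand. Capitals mark the octamer, and a match is a string of letters, not a binding site. They lie at chr1:135258423-135258722 (minus strand, Elf3), chr6:65144681-65144980 (minus strand, Hpgds), chr7:125552021-125552320 (plus strand, Il4ra) and chr9:51328869-51329168 (minus strand, 1810046K07Rik), and are written 5′ to 3′ on the strand of the gene.
Elf3: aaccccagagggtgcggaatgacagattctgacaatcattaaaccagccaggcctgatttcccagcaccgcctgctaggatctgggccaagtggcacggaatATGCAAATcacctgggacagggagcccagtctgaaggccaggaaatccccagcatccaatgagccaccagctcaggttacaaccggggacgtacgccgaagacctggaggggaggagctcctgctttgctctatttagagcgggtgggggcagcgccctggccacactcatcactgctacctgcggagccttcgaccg
Hpgds: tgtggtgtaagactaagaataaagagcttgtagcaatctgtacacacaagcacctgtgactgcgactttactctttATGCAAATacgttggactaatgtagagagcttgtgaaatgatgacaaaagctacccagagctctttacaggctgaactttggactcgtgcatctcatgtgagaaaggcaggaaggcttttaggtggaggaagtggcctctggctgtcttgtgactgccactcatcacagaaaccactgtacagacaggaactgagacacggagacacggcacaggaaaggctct
Il4ra: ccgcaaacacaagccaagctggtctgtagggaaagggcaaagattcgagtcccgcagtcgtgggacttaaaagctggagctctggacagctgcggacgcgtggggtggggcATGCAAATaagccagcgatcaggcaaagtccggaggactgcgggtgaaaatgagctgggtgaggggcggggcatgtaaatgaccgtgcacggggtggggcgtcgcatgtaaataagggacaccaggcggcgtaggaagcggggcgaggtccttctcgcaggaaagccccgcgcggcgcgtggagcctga
1810046K07Rik: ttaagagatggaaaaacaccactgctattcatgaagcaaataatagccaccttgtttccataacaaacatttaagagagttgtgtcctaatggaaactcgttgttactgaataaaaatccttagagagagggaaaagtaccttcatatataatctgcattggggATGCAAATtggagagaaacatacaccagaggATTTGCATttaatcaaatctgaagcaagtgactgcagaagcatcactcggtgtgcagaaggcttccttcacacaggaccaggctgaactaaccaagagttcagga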

How the data were processed

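The authors deposited tables of counts, in which each value is the whole number of reads of a gene in a well. Per the submitters' processing notes, STAR, Subread, featureCounts 1.5.3, R 3.4.0 and GRCm38 were used, and no annotation is named. A deposited table of scores per gene and well gave only a list of wells for an alternative, and its score values were not used. Gene names, exon lengths and shared 31-base words came from GENCODE M21, which matched 48349 of 48795 gene entries; 92 others were spike-ins. Levels are summed reads per 1000000 gene reads, and RPKM divides by exon length in kilobases. Thinning drew reads without replacement. Spread was taken as the residual from a running median over 201 genes and ranked within the set. No doublet caller was run. Genes named are the 5 markers, the 30 leading shared genes, in each of 37 lists up to 8 shared and up to 4 other members, the 30 leading variable genes, the 10 most even ones, the 5 most and least even between sets, and pairs with a rho of at least 0.5. Members outside these were named to complete a group, for a known role, or to say that a gene was absent, after their values were seen. The members and lists were chosen with earlier results of these data known. Since 1 gene passed the first rule of spread, variable genes were named from its alternatives. Alternatives covered level, share, reads, depth, cells and sets. Rules were tested on simulated data. Python 3.11.15, numpy 2.4.6, pandas 2.3.3 and scipy 1.17.1 were used. A few genes that the naming rule would include are not reported here.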

Additional observations from a re-analysis of the deposited data

Results flagged for a closer look

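The no-cell well of June29 held reads of tuft markers. Avil had 23 reads there, Trpm5 20, Sh2d6 6 and Gnat3 10, among 9892 gene reads, while Pou2f3 had 0. Each of these 4 counts is above 3 reads, a bound for a count of 0 that takes reads as independent. PCR reads are not independent molecules, so passing this bound is no test. Shared genes took 4991 of the gene reads of that well. The source of these reads was not tested.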

How the results depend on the processing

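The count of 719 shared genes was 378 at a level of 200 CPM, 323 at a share of 70% of cells and 88 at a share of 90% of cells. It ranged between 626 and 1047 under the other settings of level, reads, depth, wells and sets tried. With 1 set left out it was 771 without June5, 913 without June29 and 843 without WT batch 2. Of the 719, 606 were shared in thinned cells and 681 by the mean of per-cell CPM. The cause of these moves was not tested.

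The count of 1 variable gene was 7 at a percentile of 80, 0 at a percentile of 95, 2 at a level of 100 CPM and 4 with the counts as deposited. It was 65 by the SD of log2(CPM + 1), 33 with no limit on a single cell and 0 without the cells that held blood cell markers. With 1 set left out it was 26 without June5, 4 without June29 and 3 without WT batch 2. The list of 65, whose own alternatives were chosen after seeing the data, held 130 genes at a percentile of 80, 33 at 95 and 14 without the cells that held blood cell markers. Per-cell medians were as low as 0.0266 of the summed level, for Gnat3 in June29.

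Each set is a single pool, so no statement here measures the spread between animals. The 29 June5 cells limit spread most, since 22 remained after thinning.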
